A study of Nematostella vectensis with 84 samples.

Results

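The cells described here came from the FoxL2>KikGR reporter line of the starlet sea anemone Nematostella vectensis. They were compared between dissociations with DMSO and dissociations with no treatment stated. All cells that the deposited cell table assigns to the FoxL2>KikGR line were taken, which gave 6137 of the 12352 cells of the series. The other cells belonged to an Elav and a SoxC reporter line. What was compared is how the cells of a dissociation fall into the authors' clusters, and the dissociation was the replicate.

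FoxL2 is a transcription factor of the forkhead family. KikGR fluoresces green when newly made and is converted to red by violet light, so that protein made before and after illumination can be told apart. The sea anemone body wall consists of an outer epidermis and an inner gastrodermis, both epithelia, and the mesenteries are folds of the inner layer that carry muscle, digestive gland cells and germ cells. Neurons and secretory gland cells lie within these epithelia and arise from a shared pool of progenitor cells. DMSO is a solvent in wide use as a vehicle for other compounds.

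All animals were heterozygous for the stable FoxL2>KikGR transgene, were adults of 6 to 8 weeks, and contributed body wall with mesenteries below the pharynx. The DMSO group had 5 dissociations labelled with 1% DMSO, namely dissociation 11 on day 2 after photoconversion, 14 and 15 on day 4, and 16 and 17 on day 7. They gave 2935 cells in 21 libraries, with 638, 544, 750, 577 and 426 cells in that order. The untreated group had 5 dissociations, namely 10, 18 and 19 on day 2, and 12 and 13 on day 4. They gave 3202 cells in 20 libraries, with 589, 655, 309, 654 and 995 cells in that order. The labels do not say at which step DMSO was applied, how many animals entered a dissociation or whether the line descends from a single founder. Values below are listed in these orders of dissociations unless a dissociation is named.

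Sorting gate, day and sequencing pool were unequal between the groups. Of the DMSO cells, 2278 came from a gate named KikGR+ and 657 from a gate named new, which was used in dissociations 11 and 15. Of the untreated cells, 634 came from the KikGR+ gate in dissociations 10, 12 and 13, and 2568 came from an epithelial-depleted gate, which was the only gate in dissociations 18 and 19. Day 7 was sampled with DMSO only. The wells of all 5 untreated dissociations were listed in sequencing pool SB42 and those of the DMSO dissociations in pools SB34, SB40 and SB41, so in a comparison of the groups the pool and DMSO cannot be told apart. Each comparison was therefore repeated within the KikGR+ gate (5 DMSO against 3 untreated dissociations) and within days 2 and 4.

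Single cells were sorted into wells, apart from 78 control wells of which 0 were kept, and the share of the sorted wells that the authors kept as cells was lower with DMSO. It was 76.1%, 69.8%, 78.9%, 74.9% and 74.7% in the DMSO dissociations and 77.5%, 86.2%, 81.3%, 86.1% and 87.3% in the untreated dissociations. The difference of the means, 74.9% ± 3.30 with DMSO and 83.7% ± 4.14 in untreated dissociations (SD, n = 5 each), was -8.76 points (p = 0.0159 in a two-sided exact permutation test), and without the libraries of pool SB34 it was -7.23 points (p = 0.0635, exact permutation). The lists covered 39 of the 41 libraries. The part of this yield in the shares below was not tested. The cell table holds no molecule counts, so cluster names could not be checked against marker genes and depth per cell could not be compared.

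The 5 libraries of pool SB34, of which each DMSO dissociation had 1, stood apart from the other DMSO libraries. The deposited well list of pool SB34 is titled as including resequenced libraries, and the lists of the other pools are not. Which libraries were resequenced is not given in the sources used here. Cluster 30, named Gastrodermis by the authors, held 49 FoxL2 cells, and all 49 were among the 665 cells of these 5 libraries, against 0 of 2270 cells in the other DMSO libraries, which allows a share of up to 0.132%. Over the whole series all 125 cells of cluster 30 were in pool SB34. The main comparisons over all gates are given with and without the libraries of pool SB34. All 665 of their FoxL2 cells came from the KikGR+ gate. The comparisons of clusters within that gate are given only with these libraries included.

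Neural 1, the largest neuronal class of the annotation, took a smaller share of the cells with DMSO, and both epithelia took a larger share. Of 13 broad clusters, 5 passed an adjusted p of 0.05, which is 38.5% of those tested, with 2 higher (15.4%) and 3 lower (23.1%) with DMSO. The ranges of the groups did not overlap in 3 (23.1%). Neural 1 made up 15.0%, 24.1%, 22.4%, 20.5% and 12.7% of cells in the DMSO dissociations, against 43.8%, 32.2%, 45.3%, 45.3% and 47.7% in the untreated dissociations. Every DMSO value lay below every untreated value. The means were 18.9% ± 4.88 with DMSO and 42.9% ± 6.12 in untreated dissociations (SD, n = 5 each), a difference of -23.9 points (p = 0.00794 and adjusted p = 0.0344 in a two-sided exact permutation test). A p of 0.00794 is the smallest that the 252 arrangements of these dissociations can give.

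Neural 2 was also lower, with 1.57%, 3.49%, 2.40%, 4.51% and 3.76% of cells in the DMSO dissociations, against 11.4%, 9.62%, 5.50%, 7.95% and 10.8% in the untreated dissociations. The groups did not overlap, and the means of 3.14% ± 1.16 with DMSO and 9.04% ± 2.37 in untreated dissociations differed by -5.90 points (exact permutation, n = 5 each, adjusted p = 0.0344). Mucous cells, secretory cells that release mucus, averaged 1.59% ± 0.572 with DMSO and 2.91% ± 0.528 in untreated dissociations (SD, n = 5 each), a difference of -1.31 points (exact permutation, adjusted p = 0.0413). Their ranges overlapped.

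The Gastrodermis share was 12.5%, 8.46%, 34.4%, 19.6% and 19.2% in the DMSO dissociations, against 3.74%, 5.95%, 5.18%, 3.06% and 1.71% in the untreated dissociations. The groups did not overlap, although the DMSO values spread widely and dissociation 15 was far above the others. The means of 18.8% ± 9.88 with DMSO and 3.93% ± 1.69 in untreated dissociations gave a 4.80-fold ratio (exact permutation, n = 5 each, adjusted p = 0.0344). The Epidermis share was 21.0%, 12.1%, 8.67%, 27.7% and 25.4% in the DMSO dissociations, against 4.92%, 5.50%, 10.4%, 3.67% and 1.21% in the untreated dissociations. DMSO dissociation 15 lay below untreated dissociation 19, and the means differed by 13.8 points (exact permutation, adjusted p = 0.0413).

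**Figure D1:**
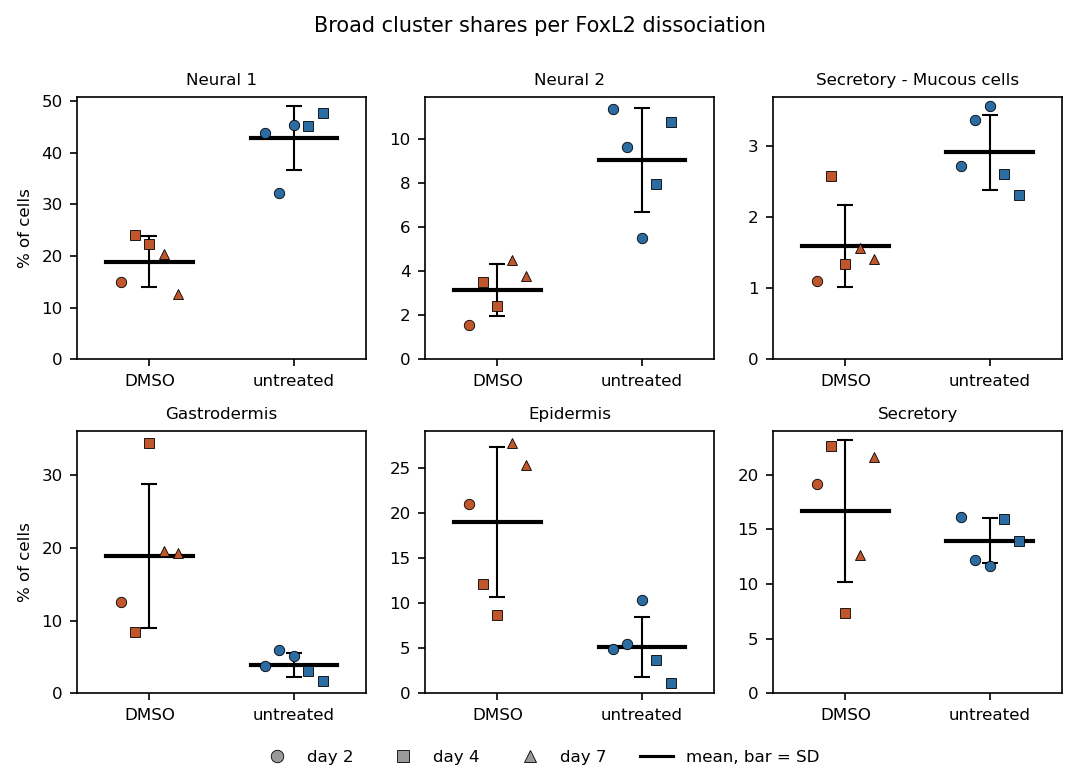
Share of cells (percent, vertical axis) in 6 broad clusters for each FoxL2 dissociation, with DMSO left and untreated right; symbols give the day, lines the mean and bars the SD (n = 5 each). The Neural 1 points lie between 12.7% and 24.1% with DMSO and between 32.2% and 47.7% in untreated dissociations, while the Secretory points of the groups overlap.

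The other 8 broad clusters did not pass. Secretory cells, the digestive and other gland cells, averaged 16.7% ± 6.50 with DMSO and 14.0% ± 2.05 in untreated dissociations (SD, n = 5 each; exact permutation, adjusted p = 0.585). Progenitor cells averaged 8.64% ± 4.96 with DMSO and 9.75% ± 3.04 in untreated dissociations (exact permutation, n = 5 each, adjusted p = 0.887), with DMSO values of 14.3% on day 2, 11.2% and 10.9% on day 4, and 3.29% and 3.52% on day 7. The new gate of dissociations 11 and 15 held 22.9% and 17.1% Progenitor cells. Within the KikGR+ gate alone the share was 6.33%, 11.2%, 5.51%, 3.29% and 3.52% in the DMSO dissociations, against 6.67%, 10.2% and 11.1% in untreated dissociations 10, 12 and 13, so day 2 was not the highest DMSO day there. Muscle, Undetermined, Neural 0, Neural 3, Neural 4 and developing cnidocytes, the precursors of the stinging cells, differed by at most 0.847 points in either direction. For the rare Muscle cells, 1.35% with DMSO and 0.507% in untreated dissociations, this was a 2.67-fold ratio (exact permutation, adjusted p = 0.189). On days 2 and 4 Muscle averaged 1.87% with DMSO, with no overlap (exact permutation within day, p = 0.0833, and freely, p = 0.0179, adjusted p = 0.0580). Within the KikGR+ gate it averaged 0.861% with DMSO and 0.523% in untreated dissociations, with overlap. Without the libraries of pool SB34 the same 5 of 13 broad clusters (38.5%) passed, and Neural 1 differed by -26.2 points. Without dissociation 10, 11, 12, 13, 16, 17, 18 or 19 in turn 0 of 13 passed (exact permutation, smallest adjusted p = 0.0516), with unchanged directions of the 5, and without dissociation 15 there were 3.

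Within the KikGR+ gate the Neural 1 share was 16.9%, 24.1%, 27.3%, 20.5% and 12.7% in the DMSO dissociations, against 43.2%, 44.6% and 46.9% in untreated dissociations 10, 12 and 13. The groups did not overlap, with a difference of -24.6 points (exact permutation, n = 5 and 3, p = 0.0179, adjusted p = 0.0774). Epidermis averaged 22.1% ± 8.89 with DMSO (n = 5) and 5.39% ± 3.69 in untreated dissociations (n = 3), and Neural 2 averaged 3.63% ± 0.780 with DMSO and 8.40% ± 2.67 in untreated dissociations. Gastrodermis averaged 15.4% ± 8.55 with DMSO (n = 5) and 3.38% ± 2.26 in untreated dissociations (n = 3; exact permutation, p = 0.0536), and its groups overlapped there, with 4.52% in DMSO dissociation 11 and 5.73% in untreated dissociation 12. The mucous cells differed by -0.0710 points there, with 1.91% ± 0.577 with DMSO and 1.98% ± 1.24 in untreated dissociations.

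None of the 13 broad clusters passed the adjusted threshold within this gate (0.0%; exact permutation, 4 at an unadjusted p of 0.05 or less, namely Neural 1, Neural 2, Epidermis and Undetermined), where 0.0179 is the smallest p that 56 arrangements can give. Undetermined cells averaged 2.05% ± 0.524 with DMSO and 3.78% ± 0.680 in untreated dissociations, with no overlap. Within days 2 and 4, with labels permuted within day, Neural 1 differed by -24.2 points, Neural 2 by -6.77, Gastrodermis by 14.1 and Epidermis by 10.6, each at the smallest p of 0.0417 that 24 arrangements can give (exact permutation, adjusted p = 0.135, 0 of 13 passed, 0.0%). A cluster could pass there only if most of the 13 were at that p.

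Gates could be compared inside single dissociations. In the untreated dissociations 10, 12 and 13 the Neural 1 share was 44.5%, 45.5% and 47.9% in the epithelial-depleted gate and 43.2%, 44.6% and 46.9% in the KikGR+ gate. The Epidermis share of these dissociations was 2.92%, 2.21% and 1.20% in the epithelial-depleted gate and 6.67%, 8.28% and 1.23% in the KikGR+ gate, and the Gastrodermis share was 4.38%, 2.21% and 1.80% in the epithelial-depleted gate and 3.17%, 5.73% and 1.23% in the KikGR+ gate. The epithelial-depleted gate, which gave most untreated cells, thus held less Epidermis than the KikGR+ gate in dissociations 10 and 12 and nearly the same in 13. In the DMSO dissociations 11 and 15 the Neural 1 share was 13.1% and 16.8% in the new gate and 16.9% and 27.3% in the KikGR+ gate. The new gate held more Gastrodermis than the KikGR+ gate in both, with 21.2% against 4.52% in dissociation 11 and 45.0% against 25.1% in dissociation 15, and less Epidermis, with 9.15% against 31.9% in dissociation 11 and 3.42% against 13.3% in dissociation 15. The SB34 libraries of dissociations 11 and 15, with 125 and 131 cells, were sorted from the KikGR+ gate. The gates of dissociations 11 and 15 thus also differed in pool, and the part of the pool in these differences was not tested. Over single libraries the Neural 1 share ranged between 9.38% and 34.4% with DMSO (21 libraries, median 20.5%) and between 26.1% and 56.9% in untreated dissociations (20 libraries, median 44.7%).

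In the finer annotation, 9 of 45 clusters passed the adjusted threshold (20.0%), of which 1 was higher (2.22%) and 8 were lower (17.8%) with DMSO, and 19 had an unadjusted p of 0.05 or less. The ranges of the groups did not overlap in these 9 (20.0%), and each had p = 0.00794 and adjusted p = 0.0397 (two-sided exact permutation test, n = 5 each). The single higher cluster was Gastrodermis cluster 2. Of the lower ones, 5 belonged to Neural 1, 2 to Neural 2 and 1 to Secretory. All 9 kept their direction when any single dissociation was left out, but 0 passed without dissociation 11, 13, 16 or 17 (exact permutation, smallest adjusted p = 0.0510 to 0.0595), while 17 passed without dissociation 15.

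Gastrodermis cluster 2 took 10.5%, 6.25%, 9.47%, 6.07% and 7.75% of cells in the DMSO dissociations, against 2.21%, 1.98%, 1.62%, 1.53% and 0.704% in the untreated dissociations. The lowest DMSO value was above the highest untreated value, and the ratio of the means was 4.98. The next largest gastrodermal cluster, cluster 3, averaged 6.27% ± 5.64 with DMSO and 1.12% ± 0.835 in untreated dissociations (SD, n = 5 each) and did not pass (exact permutation, adjusted p = 0.119).

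Neural 1 cluster 5 had the largest difference among the neuronal clusters. It took 1.72%, 3.68%, 2.93%, 2.43% and 0.939% of cells in the DMSO dissociations, against 13.6%, 8.70%, 9.39%, 8.10% and 8.44% in the untreated dissociations, where dissociation 10 was the highest. The mean was 2.34% ± 1.06 with DMSO and 9.64% ± 2.25 in untreated dissociations (SD, n = 5 each), which is 4.12-fold lower. Neural 1 cluster 11, which the authors named Class8-like, took 0.627%, 0.735%, 1.07%, 1.04% and 1.41% in the DMSO dissociations, against 3.23%, 3.21%, 3.24%, 5.35% and 5.43% in the untreated dissociations. It was 4.19-fold lower, and its untreated values were higher on day 4 than on day 2.

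Neural 2 cluster 15, whose name carries the insulin-like peptide label ilp7, took 0.784%, 1.65%, 0.667%, 1.91% and 1.17% of cells in the DMSO dissociations, against 8.32%, 5.65%, 2.91%, 4.74% and 6.53% in the untreated dissociations. It was 4.55-fold lower with DMSO, the largest ratio among the 8 lower clusters. Neural 1 cluster 4 took 2.04%, 4.41%, 2.27%, 2.77% and 3.05% in the DMSO dissociations, against 5.43%, 5.04%, 5.50%, 8.87% and 8.94% in the untreated dissociations. Here the gap between the groups was small, with 4.41% in DMSO dissociation 14 and 5.04% in untreated dissociation 18.

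Neural 1 cluster 13 averaged 2.04% ± 0.284 with DMSO and 3.59% ± 0.577 in untreated dissociations (SD, n = 5 each). Neural 1 cluster 20, named RPa, took 1.41%, 1.65%, 1.60%, 0.347% and 0.469% in the DMSO dissociations, against 2.55%, 2.60%, 4.21%, 4.43% and 3.72% in the untreated dissociations. Its lowest values were those of day 7. Neural 2 cluster 29 averaged 0.696% ± 0.388 with DMSO and 1.54% ± 0.321 in untreated dissociations. Secretory cluster 19, named pl1, averaged 1.30% ± 0.460 with DMSO and 2.93% ± 0.380 in untreated dissociations. It was the single member of the gland cells to pass over all cells.

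**Figure D2:**
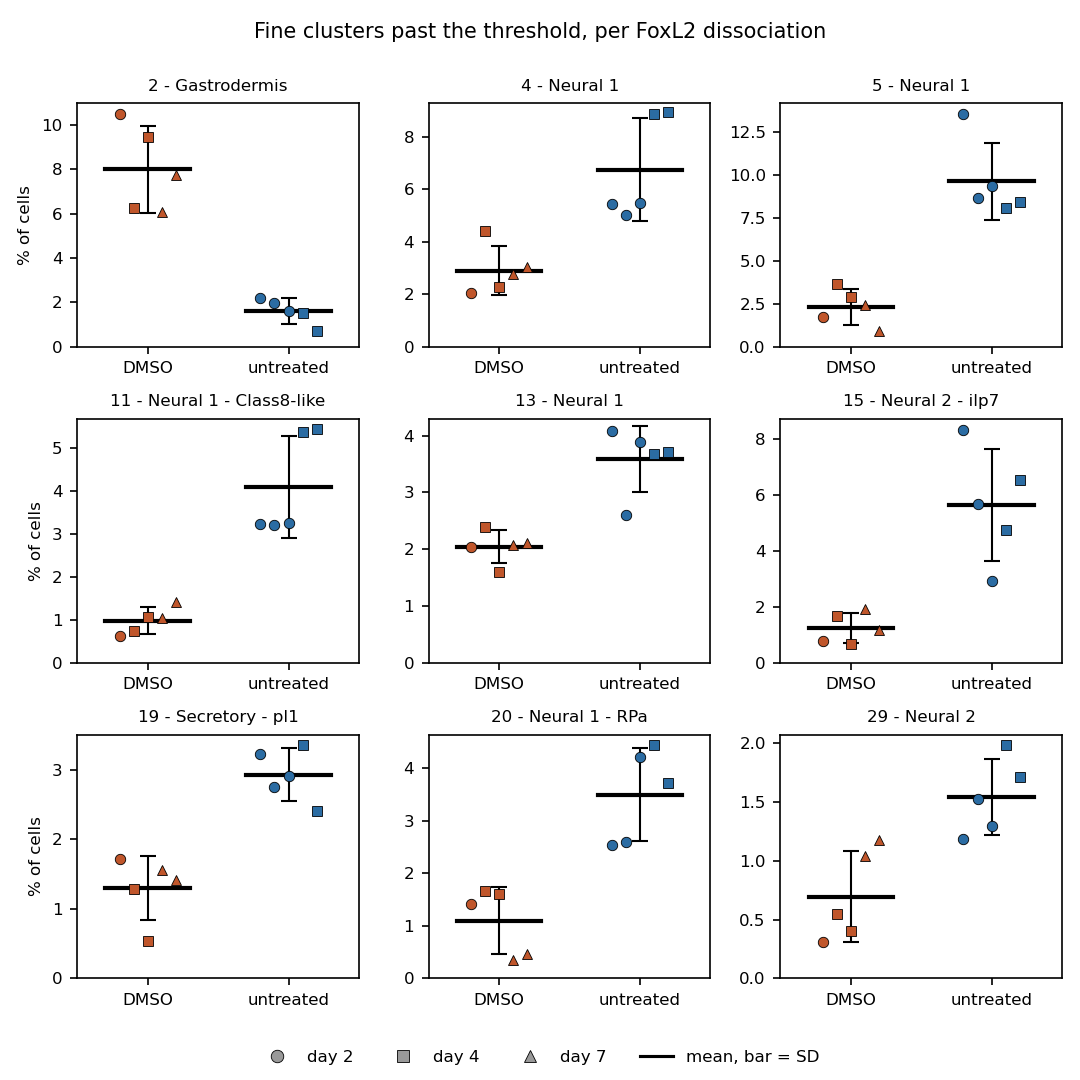
Share of all cells (percent, vertical axis) in the 9 fine clusters that passed, for each FoxL2 dissociation, with DMSO left and untreated right; symbols give the day, lines the mean and bars the SD (n = 5 each). In each panel the groups do not overlap, and cluster 2 is the panel in which DMSO is the higher group.

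Within the KikGR+ gate 0 of 45 fine clusters passed (0.0%; exact permutation, 8 at an unadjusted p of 0.05 or less, smallest adjusted p = 0.134). All 9 differences kept their direction there, and they were of unequal size. Cluster 5 differed by -7.82 points, cluster 4 by -8.03, cluster 11 by -3.91, cluster 15 by -3.67 and cluster 2 by 4.27, each with groups that did not overlap, as in 9 of the 45 clusters (20.0%). The groups of cluster 29 did not overlap there either, with a highest DMSO value of 1.17% and a lowest untreated value of 1.23%. Cluster 13 differed by -0.556 points (exact permutation, n = 5 and 3, p = 0.375), cluster 20 by -0.944 (p = 0.125) and cluster 19 by -1.02 (p = 0.214), against -1.54, -2.40 and -1.63 points over all gates. Within days 2 and 4, with labels permuted within day, 0 of 45 passed (0.0%), with 12 at the smallest possible exact permutation p of 0.0417. A cluster could pass there only if most of the 45 were at that p, so this count says little.

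The composition inside Neural 1 was compared with 567 Neural 1 cells from the DMSO group, 54 to 168 a dissociation, and 1380 from the untreated group, 140 to 475 a dissociation. None of its 13 fine clusters passed (0.0%; exact permutation, 3 at an unadjusted p of 0.05 or less, smallest adjusted p = 0.103). Cluster 5 made up 11.5%, 15.3%, 13.1%, 11.9% and 7.41% of Neural 1 cells in the DMSO dissociations, against 31.0%, 27.0%, 20.7%, 17.9% and 17.7% in the untreated dissociations. With all gates, libraries and days, it was the single Neural 1 cluster whose groups did not overlap (7.69% of those tested), with means of 11.8% ± 2.88 with DMSO and 22.9% ± 5.91 in untreated dissociations (SD, n = 5 each; exact permutation, p = 0.00794, adjusted p = 0.103).

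The other Neural 1 clusters that were lower as a share of all cells did not pass inside Neural 1. Over all gates cluster 4 made up 15.9% ± 5.41 of Neural 1 cells with DMSO and 15.7% ± 3.46 in untreated dissociations (SD, n = 5 each), a direction that turned within days 2 and 4, where it differed by -2.76 points (exact permutation, p = 0.417). Cluster 13 made up 11.5% ± 3.68 with DMSO and 8.37% ± 0.594 in untreated dissociations, above in the mean where its share of all cells was below. Cluster 11 made up 5.64% ± 3.16 with DMSO and 9.53% ± 2.19 in untreated dissociations (exact permutation, n = 5 each, adjusted p = 0.181), and its highest DMSO value, 11.1% in dissociation 17, came from a dissociation with 54 Neural 1 cells. Without the libraries of pool SB34 cluster 11 made up 4.41% ± 1.08 with DMSO, with no overlap (exact permutation, p = 0.00794, adjusted p = 0.0516). On days 2 and 4 it made up 3.99% with DMSO, also with no overlap (exact permutation within day, p = 0.0417, adjusted p = 0.135).

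Cluster 10, also named RPa, made up 12.7% ± 1.14 of Neural 1 cells with DMSO and 8.77% ± 2.65 in untreated dissociations (SD, n = 5 each; exact permutation, p = 0.0159, adjusted p = 0.103). Without the libraries of pool SB34 it made up 7.62% ± 2.77 with DMSO, against the same 8.77% in untreated dissociations (exact permutation, p = 0.524), so the direction turned. Cluster 33 made up 6.63% ± 3.24 with DMSO and 2.33% ± 1.73 in untreated dissociations (exact permutation, n = 5 each, p = 0.0317, adjusted p = 0.138). On days 2 and 4 cluster 33 made up 8.68% with DMSO, with no overlap (exact permutation within day, p = 0.0417, adjusted p = 0.135). The remaining named clusters were less far apart, with cluster 18 at 8.04% ± 2.50 with DMSO and 5.43% ± 2.10 in untreated dissociations, cluster 24 at 7.54% ± 3.71 with DMSO and 5.17% ± 1.37 in untreated dissociations, and cluster 25 at 5.40% ± 3.56 with DMSO and 4.96% ± 0.476 in untreated dissociations. Cluster 20 made up 5.76% ± 3.04 with DMSO and 8.15% ± 1.55 in untreated dissociations. On days 2 and 4 cluster 24 differed by 3.23 points, with overlap (exact permutation within day, p = 0.0417, adjusted p = 0.135). Cluster 20 differed there by -0.311 points (exact permutation within day, p = 0.792).

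Within the KikGR+ gate 0 of the 13 Neural 1 clusters passed (0.0%; exact permutation, 2 at an unadjusted p of 0.05 or less, clusters 33 and 43). Cluster 4 made up 17.2% ± 4.27 with DMSO (n = 5) and 25.2% ± 8.58 in untreated dissociations (n = 3; exact permutation, adjusted p = 0.232), and cluster 20 made up 6.06% ± 3.48 with DMSO and 4.90% ± 0.534 in untreated dissociations (exact permutation, adjusted p = 0.760). Both directions were the opposite of those over all gates. Cluster 5 made up 12.2% ± 3.40 of Neural 1 cells with DMSO (n = 5), against 40.4%, 20.0% and 10.5% in untreated dissociations 10, 12 and 13, so the groups overlapped there. Cluster 33 made up 4.45% ± 1.21 with DMSO (n = 5) and 1.35% ± 1.32 in untreated dissociations (n = 3; exact permutation, p = 0.0179, adjusted p = 0.116), with 21 DMSO and 3 untreated cells. Cluster 43, named here after its values were seen, made up 2.06% ± 0.337 with DMSO and 0.915% ± 0.794 in untreated dissociations, from 10 DMSO and 2 untreated cells. Its direction within the gate was also the opposite of that over all gates. Cluster 13 made up 13.5% ± 4.41 with DMSO and 6.94% ± 1.97 in untreated dissociations, with no overlap (exact permutation, p = 0.0893, adjusted p = 0.193).

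Inside the Secretory class, whose total share did not pass, the make-up of the gland cells differed. Of 11 fine clusters, 3 passed (27.3%), 2 higher (18.2%) and 1 lower (9.09%) with DMSO, all with groups that did not overlap (27.3%), each with p = 0.00794 and adjusted p = 0.0291 (two-sided exact permutation test, n = 5 each). The class held 465 cells from the DMSO group, 55 to 123 a dissociation, and 454 from the untreated group, 36 to 139 a dissociation.

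Cluster 12, named Secretory-like NEP2/8, made up 14.8%, 15.4%, 3.64%, 9.59% and 6.52% of Secretory cells in the DMSO dissociations, against 2.11%, 1.25%, 2.78%, 0.962% and 1.44% in the untreated dissociations. Its means of 9.99% ± 5.12 with DMSO and 1.71% ± 0.732 in untreated dissociations gave a 5.85-fold ratio, from 52 DMSO and 7 untreated cells. It did not pass with each plate weighted equally, where the groups overlapped (lowest DMSO value 1.52%, highest untreated value 2.78%; exact permutation, adjusted p = 0.0873), nor without dissociation 10, 12, 13 or 18 (exact permutation, adjusted p = 0.0582). Cluster 36, named pl2, made up 4.10%, 4.88%, 5.45%, 5.48% and 4.35% in the DMSO dissociations, against 1.05%, 2.50%, 2.78%, 0.962% and 3.60% in the untreated dissociations, from 22 DMSO and 10 untreated cells. The groups came closest in DMSO dissociation 11 and untreated dissociation 13, and cluster 36 did not pass without dissociation 11 or 17 (exact permutation, adjusted p = 0.0582).

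Cluster 19, named pl1, made up 9.02%, 5.69%, 7.27%, 12.3% and 6.52% of Secretory cells in the DMSO dissociations, against 20.0%, 22.5%, 25.0%, 21.2% and 17.3% in the untreated dissociations. Its means of 8.17% ± 2.63 with DMSO and 21.2% ± 2.87 in untreated dissociations (SD, n = 5 each) differed by -13.0 points. The clusters named pl1 and pl2 thus differed in opposite directions.

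**Figure D3:**
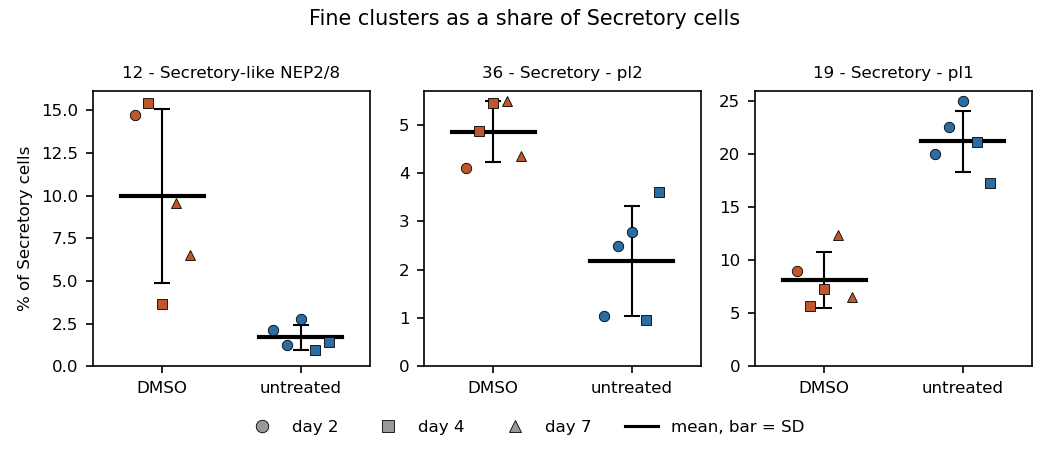
Share of Secretory cells (percent, vertical axis) in the 3 fine clusters that passed within the class, for each FoxL2 dissociation, with DMSO left and untreated right; symbols give the day, lines the mean and bars the SD (n = 5 each). Clusters 12 and 36 are higher with DMSO and cluster 19 is lower, with no overlap of the groups.

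The clusters named after trypsin, a protease that digests protein, did not pass. Cluster 7 made up 20.1% ± 3.29 of Secretory cells with DMSO and 23.7% ± 1.34 in untreated dissociations, and cluster 26 made up 7.50% ± 3.37 with DMSO and 11.1% ± 1.76 in untreated dissociations (SD, n = 5 each). Cluster 16, named trypsinA/B, made up 15.8% ± 4.34 with DMSO and 12.4% ± 2.76 in untreated dissociations. Cluster 34, named after the chitin-degrading enzyme chitinase, made up 4.00% ± 0.620 with DMSO and 6.97% ± 4.33 in untreated dissociations, where it ranged between 0% and 11.5%. Cluster 40 made up 4.74% ± 1.65 with DMSO and 5.03% ± 0.865 in untreated dissociations.

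Cluster 28, named NEP6/NEP14, made up 7.84% ± 3.96 of Secretory cells with DMSO and 2.20% ± 1.28 in untreated dissociations (SD, n = 5 each; exact permutation, adjusted p = 0.0873), and cluster 21, named ilp2/3, made up 12.6% ± 3.03 with DMSO and 8.70% ± 1.67 in untreated dissociations (adjusted p = 0.0873). Without the libraries of pool SB34 both passed, with differences of 6.76 and 4.91 points (exact permutation, adjusted p = 0.0218 and 0.0349), and 5 of 11 clusters passed in all (45.5%). Within the KikGR+ gate cluster 28 differed by 6.73 points (exact permutation, p = 0.0714) and cluster 21 by 0.683 (p = 0.75). With each plate weighted equally they differed by 3.60 (exact permutation, p = 0.111) and 3.52 points (p = 0.0794). On days 2 and 4 they differed by 5.57 (exact permutation within day, p = 0.0417) and 3.28 points (p = 0.25). Neither passed in these settings.

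Within the KikGR+ gate 0 of the 11 Secretory clusters passed (0.0%), and 0 had an unadjusted exact permutation p of 0.05 or less, with 407 DMSO and 92 untreated Secretory cells. Cluster 12 made up 21.6%, 15.4%, 4.44%, 9.59% and 6.52% of Secretory cells in the DMSO dissociations, against 2.00%, 0% and 0% in untreated dissociations 10, 12 and 13, which held a single cell of it. Its groups did not overlap (exact permutation, n = 5 and 3, p = 0.0536, adjusted p = 0.147). Cluster 19 made up 8.40% ± 2.96 with DMSO (n = 5) and 17.5% ± 7.89 in untreated dissociations (n = 3), where its groups overlapped. Cluster 36 made up 4.37% ± 1.03 with DMSO and 2.12% ± 2.18 in untreated dissociations, from 18 DMSO and 2 untreated cells. Its groups also overlapped (exact permutation, p = 0.0536, adjusted p = 0.147).

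Shares of a whole depend on each other, so the comparison was repeated on the cells that were neither Epidermis nor Gastrodermis. Of the 40 remaining fine clusters 7 passed (17.5%; exact permutation, adjusted p = 0.0454 each), of which 3 were among the 9 above. These were the Neural 1 clusters 4, 5 and 11, with 3.74% ± 1.50 with DMSO and 10.6% ± 2.57 in untreated dissociations for cluster 5 (SD, n = 5 each). The other 4 were the Secretory clusters 12, 21, 28 and 36, all higher with DMSO. Neural 1 as a whole made up 30.8% ± 8.17 of these cells with DMSO and 47.1% ± 6.42 in untreated dissociations (SD, n = 5 each), a difference of -16.3 points that did not pass (p = 0.0238 and adjusted p = 0.0873 by exact permutation). Of these 11 broad clusters 0 passed (0.0%), with 5 at an unadjusted exact permutation p of 0.05 or less, namely Muscle, Neural 0 and Secretory, higher in the mean with DMSO, and Neural 1 and Neural 2, lower.

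With the Neural 1 cells left out in place of the epithelia, 6 of 32 fine clusters passed (18.8%). Cluster 2 was higher with DMSO, with 9.86% ± 2.26 with DMSO and 2.79% ± 0.925 in untreated dissociations (SD, n = 5 each). The mucous cluster 9, the pl1 cluster 19 and the Neural 2 clusters 15, 29 and 35 were lower (exact permutation, n = 5 each, adjusted p = 0.0423 for all 6). Cluster 15, for example, made up 1.54% ± 0.712 with DMSO and 9.92% ± 3.73 in untreated dissociations.

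Over the whole fine composition, dissociations of different groups were further apart than those of the same group. The mean Bray-Curtis distance, which is 0 for identical compositions and 1 for compositions with no cluster in common, was 0.428 between the groups, 0.306 within the DMSO group and 0.198 within the untreated group. The excess of the mean distance between groups over that within groups was 0.176 (one-sided exact permutation test, n = 5 each, p = 0.00794). It was 0.153 within the KikGR+ gate (exact permutation, n = 5 and 3, p = 0.0179), 0.177 within days 2 and 4 (p = 0.0417), 0.187 without the libraries of pool SB34 and 0.0935 without the epithelial cells (exact permutation, p = 0.00794 for both).

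Pool and composition also moved together inside the DMSO group. The SB34 library of each DMSO dissociation, sorted from the KikGR+ gate, was set against the other KikGR+ libraries of the same dissociation (665 and 1613 cells), 2 of which were in no list of wells. Of 45 fine clusters, 8 differed in the same direction in all 5 dissociations, a description only, since 5 pairs cannot give a two-sided p below 0.0625. The clusters named next were chosen after their values were seen.

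Cluster 30 took 0%, 1.41%, 18.3%, 4.76% and 13.3% of cells in the SB34 libraries of dissociations 11, 14, 15, 16 and 17, against 0% in the other libraries of each. Cluster 10 took 3.20%, 9.86%, 6.87%, 6.80% and 4.17% in the SB34 libraries, against 1.93%, 0.746%, 2.61%, 1.63% and 0.654% in the other libraries. The SB34 library was the higher in all 5. Cluster 29, lower with DMSO above, was also higher in the SB34 library in all 5 dissociations, with a mean of 1.95% ± 1.15 in SB34 libraries and 0.404% ± 0.272 in the others (SD, n = 5).

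Progenitor cells took 4.80%, 3.52%, 0%, 3.40% and 0% of cells in the SB34 libraries of dissociations 11, 14, 15, 16 and 17, against 7.25%, 13.9%, 8.21%, 3.26% and 4.90% in the other libraries. The SB34 library was the lower in 4 and slightly the higher in dissociation 16. The counts of 0 of 131 cells in dissociation 15 and 0 of 120 in dissociation 17 allow shares of up to 2.29% and 2.50%. Secretory clusters 7, 21 and 28 were lower in the SB34 library in all 5, with means of 1.80% in SB34 libraries and 4.43% in the others for cluster 7. The untreated group held 0 of 3202 cells in cluster 30, which allows a share of up to 0.0937%. Of the 49 cells in the DMSO group, 24 came from the SB34 library of dissociation 15 alone, and without the SB34 libraries both groups were at 0. The shares per dissociation did not pass (p = 0.0476 and adjusted p = 0.113 by exact permutation).

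With the SB34 libraries left out, 14 of 44 fine clusters passed (31.8%), including all 9 named above. Cluster 29 then differed by -1.28 points, against -0.845 with all libraries, and cluster 10 passed with 1.23% ± 0.510 of all cells with DMSO and 3.79% ± 1.34 in untreated dissociations (SD, n = 5 each; exact permutation, adjusted p = 0.0349). Whether the remaining pools differ in the same way was not tested, since the untreated dissociations were in a single pool that held no DMSO cells.

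**Figure D4:**
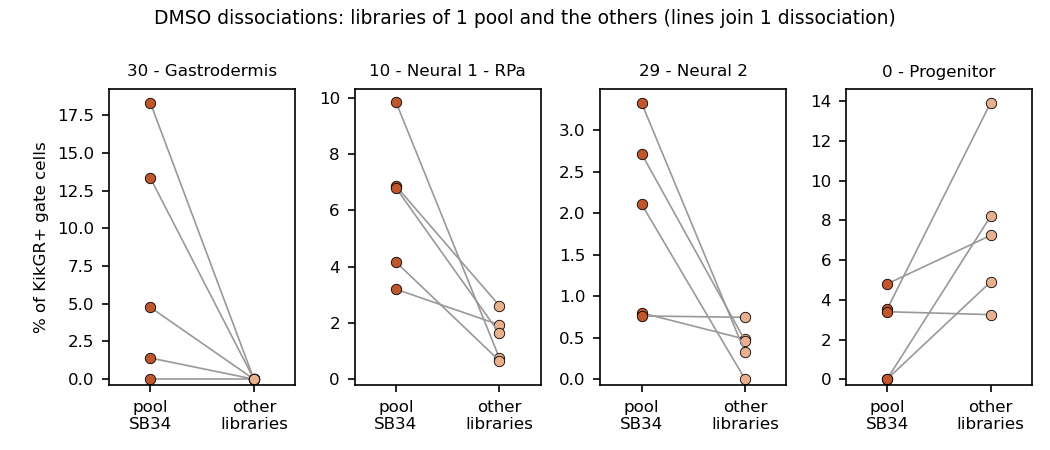
Share of KikGR+ gate cells (percent, vertical axis) in 4 fine clusters for the SB34 library and for the other libraries of each of the 5 DMSO dissociations; each line joins the values of 1 dissociation. Cluster 30 is at 0% in all other libraries, and clusters 10 and 29 are higher in the SB34 library in all 5 dissociations.

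The reporter colour class, which the authors assigned per cell as green, orange or red by a rule not given in the sources used here, was compared in the KikGR+ gate. The red class held 29.3%, 35.1%, 26.3%, 15.1% and 15.3% of classed cells in the DMSO dissociations, against 61.1%, 67.9% and 51.6% in untreated dissociations 10, 12 and 13. The groups did not overlap, and the means of 24.2% ± 8.81 with DMSO (n = 5) and 60.2% ± 8.20 in untreated dissociations (n = 3) differed by -36.0 points (exact permutation, p = 0.0179, adjusted p over the 3 classes = 0.0268). The orange class averaged 65.1% ± 6.20 with DMSO and 36.5% ± 6.92 in untreated dissociations, a difference of 28.6 points (exact permutation, adjusted p = 0.0268).

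The green class averaged 10.6% ± 7.21 with DMSO and 3.26% ± 1.30 in untreated dissociations and did not pass (exact permutation, n = 5 and 3, p = 0.125). On days 2 and 4 alone, with 3 dissociations of each group, the red difference was -30.0 points at the smallest p of 0.1 that this design allows (exact permutation, adjusted p = 0.15). Without the libraries of pool SB34 it was -37.1 points. Dissociation 10 had no colour class for 166 of its 315 cells of this gate. Among red cells Neural 1 made up 28.2% ± 6.21 with DMSO (n = 5) and 51.8% ± 7.12 in untreated dissociations (n = 3), and among orange cells 19.3% ± 6.99 with DMSO and 33.3% ± 1.08 in untreated dissociations, given as values without a test.

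**Figure D5:**
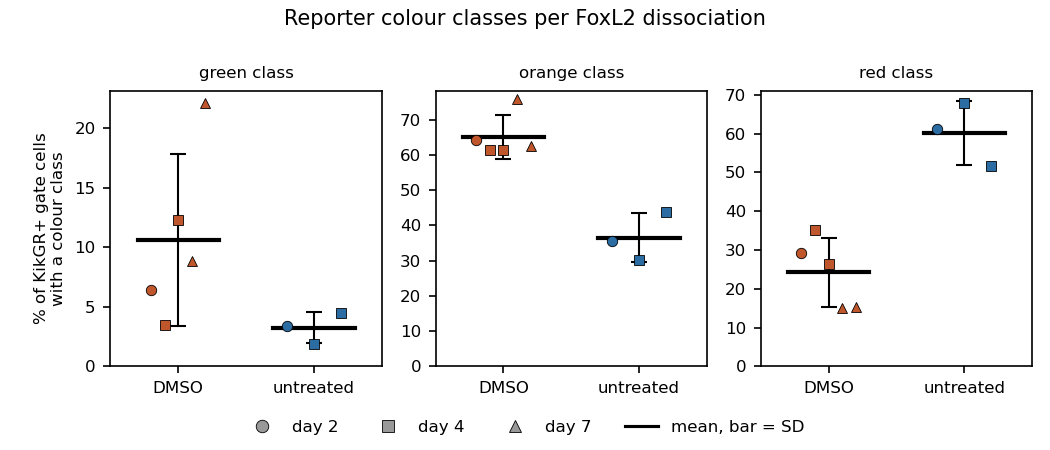
Share of KikGR+ gate cells with a colour class (percent, vertical axis) in the green, orange and red class for each FoxL2 dissociation, with DMSO left (n = 5) and untreated right (n = 3); symbols give the day, lines the mean and bars the SD. The red points lie between 15.1% and 35.1% with DMSO and between 51.6% and 67.9% in untreated dissociations.

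A second line, heterozygous for Elav>KikGR and otherwise labelled alike, had 4 DMSO dissociations on days 2, 4, 4 and 7 and 4 untreated dissociations on days 2, 2, 7 and 7, all sorted from the KikGR+ gate. It served to ask whether the DMSO difference depended on the line, although days and gates were unlike those of FoxL2, where the untreated dissociations were of days 2 and 4. Neural 1 differed by -23.9 points in FoxL2 and by -20.9 points in Elav, and Gastrodermis by 14.9 points in FoxL2 and 14.5 in Elav. Epidermis differed by 13.8 points in FoxL2 and 2.85 in Elav, and Neural 2 by -5.90 points in FoxL2 and -0.431 in Elav. When line labels were permuted within DMSO and untreated dissociations, 0 of 13 broad clusters passed (0.0%; exact permutation, 2 at an unadjusted p of 0.05 or less, smallest adjusted p = 0.260), namely Neural 2 (p = 0.0236) and the mucous cells (p = 0.0401), which differed by -1.31 points in FoxL2 and 0.641 in Elav. Differences between the lines that were present without DMSO also widen the spread in this test. Epidermis, for example, averaged 5.13% in untreated FoxL2 and 0.318% in untreated Elav dissociations. A count of 0 therefore does not show that the 2 lines differed alike.

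Of the 45 fine clusters 0 passed in the same test (0.0%; exact permutation, 3 at an unadjusted p of 0.05 or less, smallest adjusted p = 0.414), and 0 passed within the KikGR+ gate or without pool SB34. The 3 were cluster 22, named WFSa, with a difference of 0.313 points in FoxL2 and 3.68 in Elav, cluster 19, with -1.63 points in FoxL2 and -0.0372 in Elav, and cluster 13, with -1.54 points in FoxL2 and 0.610 in Elav. The pools followed DMSO in the Elav line as well, since its untreated dissociations were also in pool SB42.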

How the data were processed

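Single cells were sorted by fluorescence into plates and sequenced with MARS-seq, a plate-based method, per the labels' protocols. Reads were processed with STARsolo and STAR 2.7.10b, per the submitters' processing notes. The deposited cell table gives each cell's library, gate, cluster, broad cluster and colour class as categories that the authors set. The deposited well lists give the pool of each library and which wells held a cell. Cell filters, doublet removal and cluster settings are not given in the sources used here. The tables were matched to the labels by library, with disagreements in 0 cells.

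For each dissociation, the percent of cells in each cluster was computed (Python 3.11.15, pandas 2.3.3, numpy 2.4.6). Differences of group means were tested with two-sided exact permutation tests over dissociations, with Benjamini-Hochberg adjustment over the clusters of a comparison and a threshold of 0.05. Labels do not say that dissociations came from separate animals, so p-values measure the spread between dissociations. Precision is set by 309 to 995 cells per dissociation, and limits for a count of 0 use 3 counts and cover counting error only. Fine clusters are named where they passed over all cells or within Neural 1 or Secretory, or held at least 5% of these classes in either group, and others were named after their values were seen. All broad clusters are named. The comparison and the lists were chosen with earlier results of these data known. The permutation tests were checked on simulated data with a preset spread between dissociations. Those data held no imbalance of gate, day or pool, and their spread was not fitted to that of these dissociations. The check therefore covers neither the imbalance nor the spread seen here. Alternatives were shares on the logit scale (0.5 cells added), each plate weighted equally, clusters with at least 20 cells, the KikGR+ gate, days 2 and 4, Neural 1 left out and each dissociation left out. Added after seeing the data were the epithelia left out, also within the gate, dissociations 18 and 19 left out, pool SB34 left out, and the libraries with fewer listed wells left out.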

Additional observations from a re-analysis of the deposited data

Results flagged for a closer look

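In 5 of 89 groups of dissociations a single value lay far from the others, and chance alone gives about 1 in 20. In untreated dissociation 18, Neural 1 took 32.2% of cells, against 43.8% in the nearest untreated dissociation. In the same dissociation, Neural 1 cluster 13 took 2.60% of cells, against 3.67% in the nearest. Untreated dissociation 10 had 13.6% of cells in Neural 1 cluster 5, against 9.39% in the nearest. In DMSO dissociation 17, cluster 11 made up 11.1% of Neural 1 cells, against 5.08% in the nearest. In DMSO dissociation 16, 76.0% of classed cells were orange, against 64.3% in the nearest. Both values of dissociation 18 lay on the DMSO side of the untreated group, and both remained outside the range of the DMSO dissociations.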

How the results depend on the processing

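Over all cells, the count of fine clusters past the threshold was 9. It was 0 within the KikGR+ gate, within days 2 and 4 whether labels were permuted within day or freely, within the KikGR+ gate without epithelia, and without untreated dissociations 18 and 19, and it was 14 without pool SB34. Leaving out each dissociation gave 0 to 17, with 0 without 11, 13, 16 or 17 (exact permutation, smallest adjusted p = 0.0510 to 0.0595) and 17 without 15. The count of broad clusters, 5, was 0 within the gate, within days 2 and 4 (both ways), without epithelia and without 18 and 19, was 3 with Neural 1 left out, and ranged between 0 and 5 when each dissociation was left out, with 0 without any of 10, 11, 12, 13, 16, 17, 18 or 19 (exact permutation, smallest adjusted p = 0.0516) and 3 without 15. The Secretory count, 3, was 0 within the gate and within days 2 and 4 (both ways) and 5 without pool SB34, and ranged between 2 and 4. A count of 0 in smaller designs reflects in part their smallest possible p. With labels permuted within day, a cluster could pass only if most of those compared were at that smallest p. The difference in wells kept was -8.70 points on days 2 and 4 (exact permutation, p = 0.0536), -7.23 without pool SB34 (p = 0.0635) and ranged between -10.3 and -7.48. The red difference was -30.0 points on days 2 and 4, and ranged between -40.3 and -32.1 without each dissociation, with adjusted p = 0.0714 (exact permutation) without 10, 12 or 13. Cluster 13 turned from a negative difference to 0.769 points within the gate without epithelia. No paired analysis was possible because no dissociation number occurs in both groups. The logit scale, equal plate weights and the minimum of 20 cells kept these counts within 1.5 times, although with equal plate weights the Secretory count was 2 and cluster 12 did not pass (exact permutation, adjusted p = 0.0873). Between 309 and 995 cells per dissociation limit what can be said of rare clusters.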
